A study of Mus musculus with 13 samples.

Results

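Galc and 7 further genes of lysosomal sphingolipid breakdown were followed in whole brains of mouse embryos with and without Meg3. The set comprises all probe sets annotated to Galc, Hexa, Gla, Glb1, Psap, Arsa, Asah1 or Smpd1, which were 14 of the 45101 probe sets on the array and 8 of its 18193 named genes. Their genotype values were known when they were picked: the set was selected on annotation after knock-out against wild-type values of these same arrays had been seen. The genotype differences of the members are therefore given as a description, with no test.

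Lysosomes take sphingolipids apart from the outer end inward, and each step needs its own acid hydrolase. Glb1 and Hexa trim gangliosides, Galc and Arsa act on the galactolipids of myelin, Gla acts on globosides, Smpd1 acts on sphingomyelin, and Asah1 splits the ceramide in which these routes meet. Psap encodes prosaposin, which is cut into the saposins that present the lipids to the hydrolases. In the brain, loss of Galc causes Krabbe disease, a loss of myelin in which the toxic lipid psychosine builds up.

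The arrays held 6 wild-type embryos and 7 Meg3 knock-out embryos at embryonic day 18.5, with 1 whole brain per array and no treatment named. The leading number of each embryo label, taken here as the litter, gave 5 litters, 4 of which held both genotypes. Strain, sex and the part of Meg3 that was removed are not given in the sources used here. The embryos are labelled biological replicates, and their number limits the precision.

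Values are linear probe set intensities, called signals below, and differences are on the log2(signal + 16) scale, which understates the change of weak genes. Probe sets whose mean log2 value lay above the 40th percentile, at a signal of 56.9, were tested. That kept 27022 probe sets, among them 12 of the 14 members and at least 1 for each of the 8 genes. The brightest Meg3 probe set checked the labels, with a signal of 4955 ± 1374 (SD, n = 6) in wild-type and 378 ± 106 (SD, n = 7) in knock-out brains (limma adjusted p = 4.39e-07). The ratio of the 3' to the 5' Actb control probe set, a measure of RNA integrity, was 2.92 in wild-type 2 and 1.81 in knock-out 1, against 1.32 to 1.495 in the other 11 arrays. Of the neuron markers 12 of 12 passed the filter, as did 12920 of all 18193 named genes by their brightest probe set. Passing it therefore says little about the tissue.

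Galc, galactosylceramidase, had 3 probe sets that behaved differently from each other. Of these, 1420547_at and 1449900_at share their representative sequence, and 1452907_at was designed on another. The 250 bases before the RefSeq start of Galc (GRCm38.p6, chr12:98259460-98259709, minus strand) are shown because the largest difference of the set fell on this gene. Capitals mark a GC box (GGGCGG or its reverse complement), the motif found among those searched.
Galc: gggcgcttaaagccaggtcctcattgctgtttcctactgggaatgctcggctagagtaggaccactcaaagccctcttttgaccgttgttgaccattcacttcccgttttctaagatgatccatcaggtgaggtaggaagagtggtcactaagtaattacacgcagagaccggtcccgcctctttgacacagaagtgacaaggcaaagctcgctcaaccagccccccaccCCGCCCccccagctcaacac

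The brightest Galc probe set, 1452907_at, was low in 4 of 7 knock-out brains and within the wild-type range in the other 3. In wild-type brains its signal was 256 in wild-type 3, 292 in wild-type 4, 479.9 in wild-type 1, 543 in wild-type 5, 558 in wild-type 6 and 602 in wild-type 2. In knock-out brains it was 31.8 in knock-out 4, 32.7 in knock-out 6, 39.5 in knock-out 5 and 61.1 in knock-out 7. The remaining knock-out brains stood at 287 in knock-out 3, 289 in knock-out 2 and 304 in knock-out 1. No array lay between 61.1 and 256, so that the low brains were set apart from the next higher array by 4.19-fold. The knock-out brains above this gap overlapped the 2 lowest wild-type brains. Over all 13 arrays, 4 knock-out brains lay at 31.8 to 61.1. Another 3 knock-out and 2 wild-type brains lay at 256 to 304, and 4 wild-type brains at 479.9 to 602. This grouping was made after the values were seen. Its upper step, from 304 to 479.9, was 1.58-fold, near the 1.55-fold step from 39.5 to 61.1 within the low brains. The low brains reached the range of the filter, with 3 of 4 below 56.9, so folds against them are imprecise.

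These levels were seen on 1452907_at and not on the other Galc probe sets, which had lower mean signals in both genotypes. In knock-out 4, 5, 6 and 7, however, 1420547_at gave 126, 132, 93.6 and 262, above the 1452907_at signals of the same brains. It showed no drop there. Whether the levels are those of the Galc transcript was not tested. The levels are therefore given as signals of 1452907_at only. Galc lies on the chromosome of Meg3, and neither the strains nor the positions of the probes are given in the sources used here. Whether a sequence difference under the probes takes part in these values was not tested.

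Low and high Galc arrays occurred within 1 litter. Knock-out 3 and knock-out 4 are littermates of the same genotype from litter 238, and their 1452907_at signals were 287 and 31.8. Both knock-out brains of litter 250 and the knock-out brain of litter 262 were low, and those of litters 148 and 219 were not. Within litters the knock-out minus wild-type difference was -0.86, -1.18, -3.00 and -2.90 on the log2 scale (litters 219, 238, 250 and 262), so the knock-out mean was lower in 4 of 4.

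**Figure D1:**
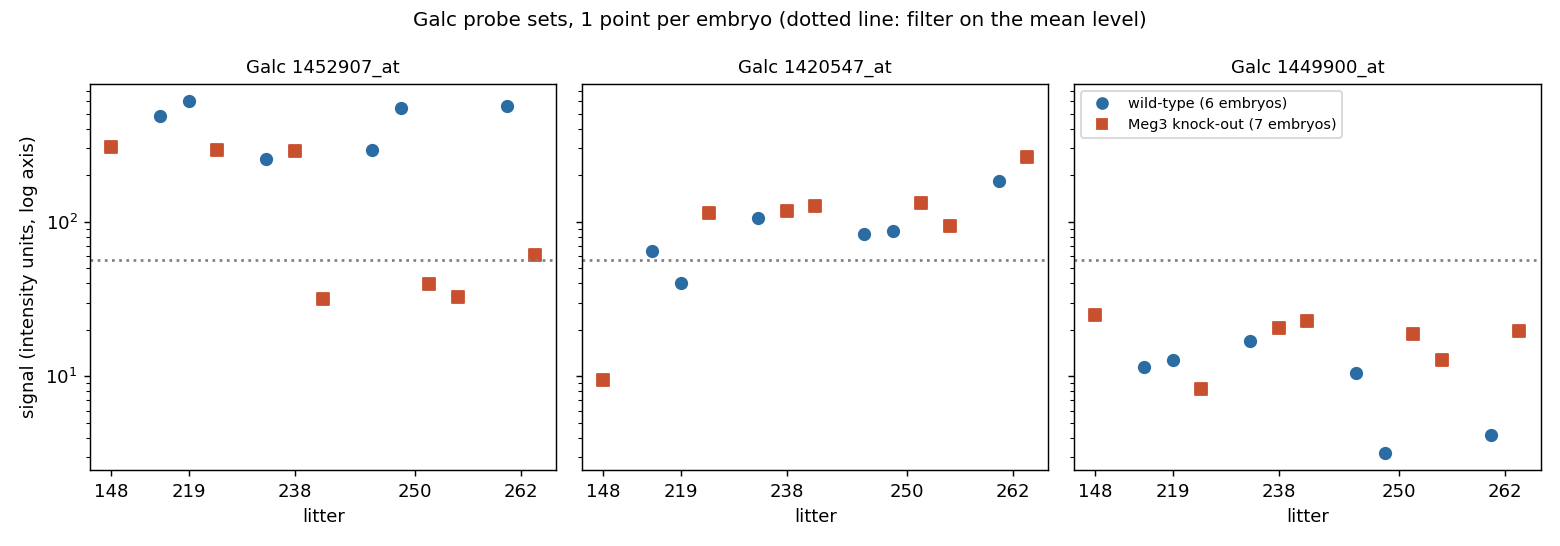
Signals of the 3 Galc probe sets in intensity units on a log axis, 1 point per embryo, arranged by litter, with circles for wild-type and squares for knock-out; the dotted line is the filter at 56.9. On 1452907_at, 4 knock-out squares lie at 31.8 to 61.1 and 3 lie at 287 to 304, whereas 1420547_at has its lowest point at 9.43 in the single embryo of litter 148.

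Averaged over all embryos, 1452907_at had a mean of 455 ± 146 (SD, n = 6) in wild-type and 149 ± 135 (SD, n = 7) in knock-out brains. The knock-out minus wild-type difference was -1.95 ± 0.52 SE on the log2 scale (95% interval -3.05 to -0.84). This was the lowest value of any member, and it stayed between -2.19 and -1.50 over 31 alternative analyses. The spread around the genotype means was in the 98.9th percentile of all tested probe sets. A wide spread was not particular to this probe set, since that of Galc 1420547_at was at percentile 97.15.

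The other Galc probe sets did not show this split. The 1420547_at signal was lowest at 40.3, with a median of 85.2 and a highest value of 183, in wild-type brains. In knock-out brains it ran from 9.43 over a median of 117 to 262. The groups overlapped, and the difference was 0.18 ± 0.44 SE (95% interval -0.76 to 1.12). It turned to -0.02 after median centring and to -0.14 without litter 219, and was 0.55 without knock-out 1. In knock-out 4, 5, 6 and 7, the brains low on 1452907_at, 1420547_at gave 126, 132, 93.6 and 262, none of which was below the wild-type median. The weakest probe set, 1449900_at, lay below the filter, at 3.21 to 16.9 in wild-type and 8.24 to 24.8 in knock-out brains. Its difference was 0.41 ± 0.16 SE, with 5 knock-out brains above the highest wild-type brain, at signals too low to be tested.

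The Galc probe sets were not seen to move together between embryos. Over deviations from the genotype means in 13 arrays, 1420547_at and 1452907_at had a Pearson r of -0.433 (permutation p = 0.140, adjusted over the 3 pairs 0.421) and a Spearman rho of -0.401 (permutation p = 0.177, adjusted 0.530). Without knock-out 1 and knock-out 7, the arrays farthest from the median, r was -0.0812. The pair of 1420547_at and 1449900_at had an r of -0.321 (permutation p = 0.291, adjusted 0.437) and a rho of -0.192 (permutation p = 0.530, adjusted 0.795), and r was -0.277 without the same 2 arrays. The pair of 1449900_at and 1452907_at had an r of -0.193 (permutation p = 0.525, adjusted 0.525) and a rho of -0.0769 (permutation p = 0.807, adjusted 0.807). That value became 0.151 without knock-out 2 and wild-type 5, so its sign rests on them.

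Litter was a measure the choice of members did not use, and 1 of the 12 tested members differed by litter. This was Galc 1420547_at (limma F test with genotype in the model, adjusted p = 0.0406), where 0.0407% of all tested probe sets were called. That share was unstable, since 11 probe sets were called here, 974 after quantile normalization, 646 after median centring, 1758 without wild-type 2, 858 without knock-out 2, 634 without wild-type 1 and 1 to 9 without any other single array. The 1420547_at signal was 9.43 in the embryo of litter 148 and 183 to 262 in litter 262. The other litters lay between, with 40.3 to 114 in the embryos of 219, 106 to 126 in those of 238 and 83.5 to 132 in those of 250. The only embryo of litter 148 is knock-out 1, whose Actb ratio was 1.81. Its litter and its RNA integrity cannot be told apart. The call was lost without any of 10 of the 13 arrays, among them knock-out 1 (adjusted p = 0.177), wild-type 6 (0.169) and knock-out 7 (0.221). It was kept without wild-type 1 (0.0403), wild-type 2 (0.0094) or knock-out 2 (0.0175). Galc 1452907_at did not pass that test (adjusted p = 0.457), and the other 10 members had adjusted p values of 0.332 to 0.947.

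Galc and Meg3 lie on chromosome 12, with 238 genes of the RefSeq table (GRCm38.p6) between them. The other 7 member genes lie on other chromosomes. Of the 20 nearest tested genes around Galc, 10 on each side, the knock-out mean was higher in 14 and lower in 6, and 0 were called. Their median difference was 0.03, between -0.27 for Kcnk13, a potassium channel gene, and 0.37 ± 0.29 SE for Eml5. Under the same fit 3 of 12920 genes, or 0.0232%, were called when each gene was read from its brightest probe set. None of these 20 neighbours had a difference near that of 1452907_at.

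The genes whose pattern was most like that of Galc 1452907_at are named as a description, being the highest of all 12920 tested genes by a ranking in which no chance level was computed. By Pearson r over deviations from the genotype means in 13 arrays, these were Cenpa, the centromeric histone (0.835), Scnm1 (0.825), S100a10 (0.800), the heat shock factor Hsf2 (0.800) and the ubiquitin-conjugating enzyme Ube2t (0.790). All 13 points share the scaling of their arrays. Their genotype differences were small, from -0.25 ± 0.17 SE for Cenpa to 0.17 ± 0.18 SE for Hsf2.

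Glb1, the lysosomal beta-galactosidase that removes the terminal galactose of a ganglioside, had a lower mean in knock-out brains. Its signals were lowest at 567, with a median of 732 and a highest value of 1004, in wild-type brains, and 528, 678 and 854 in knock-out brains. The groups overlapped over most of their range, with 1 knock-out brain below the lowest wild-type brain. The difference was -0.14 ± 0.15 SE (95% interval -0.45 to 0.17), and the sign held in 31 of 31 alternatives. Within litters it was -0.37, -0.34, 0.12 and -0.10 in litters 219, 238, 250 and 262.

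Hexa, the alpha subunit of beta-hexosaminidase A, differed between the genotypes by less than its error. Wild-type brains ran from 1016 over a median of 1601 to 1897, and knock-out brains from 1344 over 1452 to 1645. Every knock-out brain lay inside the wild-type range. The difference was -0.02 ± 0.14 SE (95% interval -0.32 to 0.28), and it was -0.22 after median centring and 0.05 without litter 238.

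Arsa, arylsulfatase A, which removes sulfate from the myelin lipid sulfatide, had wild-type signals of 578 to 1349 with a median of 1011. Knock-out brains ran from 952 to 1213 with a median of 1049, all within the wild-type range. The difference was 0.13 ± 0.16 SE (95% interval -0.21 to 0.47), and it was -0.06 after median centring and -0.01 without wild-type 2.

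Gla, alpha-galactosidase A, which takes the terminal galactose off globotriaosylceramide, had 3 probe sets. The brighter, 1418248_at, had signals of 83.1 to 170 in wild-type (median 117) and 108 to 147 in knock-out brains (median 132). Its difference was 0.08 ± 0.14 SE (95% interval -0.21 to 0.37) and turned to -0.12 after median centring, and within litters it went from 0.45 in litter 219 to -0.58 in litter 262. The second, 1449006_at, had the highest difference of any tested member, 0.52 ± 0.28 SE (95% interval -0.08 to 1.12). Its wild-type signals ran from 9.93 in wild-type 5 to 104 in wild-type 4, which are littermates, and its knock-out signals from 41.1 to 96.9. Without wild-type 5 the difference was 0.27. The third, 1459738_x_at, lay below the filter, at 1.70 to 12.2 in wild-type and 1.73 to 16.6 in knock-out brains.

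Smpd1, the acid sphingomyelinase, was read by 2 probe sets. On 1448621_a_at the wild-type signals were 967 to 2748 with a median of 2244, and the knock-out signals 1935 to 2468 with a median of 2370. The difference was 0.13 ± 0.21 SE (95% interval -0.31 to 0.57), and it became -0.08 without wild-type 2 and -0.06 after median centring. On 1447874_x_at the wild-type brains lay close together, from 159 to 208 with a median of 204. The knock-out brains ran more widely, from 136 over a median of 211 to 347 in knock-out 4. The difference there was 0.19 ± 0.18 SE (95% interval -0.20 to 0.57), and it turned to -0.01 after median centring.

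Asah1, the acid ceramidase, ran from 848 over a median of 1514 to 1632 in wild-type and from 1130 over 1410 to 1744 in knock-out brains. The lowest wild-type value belonged to wild-type 1 alone, since the next was 1423. The difference was 0.06 ± 0.16 SE (95% interval -0.28 to 0.40), and it was -0.14 after median centring and -0.08 without wild-type 1.

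Psap, the activator precursor, was read by 2 probe sets that share their representative sequence. On 1415687_a_at the signals ran from 6621 over a median of 10071 to 11345 in wild-type and from 8385 over 9542 to 11613 in knock-out brains. The difference was 0.02 ± 0.13 SE (95% interval -0.27 to 0.30), and after median centring it was -0.18. On 1421813_a_at the wild-type signals ran from 2056 over 7123 to 8420 and the knock-out signals from 4800.5 over 6786 to 7625. Its difference of 0.13 ± 0.28 SE (95% interval -0.47 to 0.72) became -0.18 without wild-type 2 and -0.07 after median centring.

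**Figure D2:**
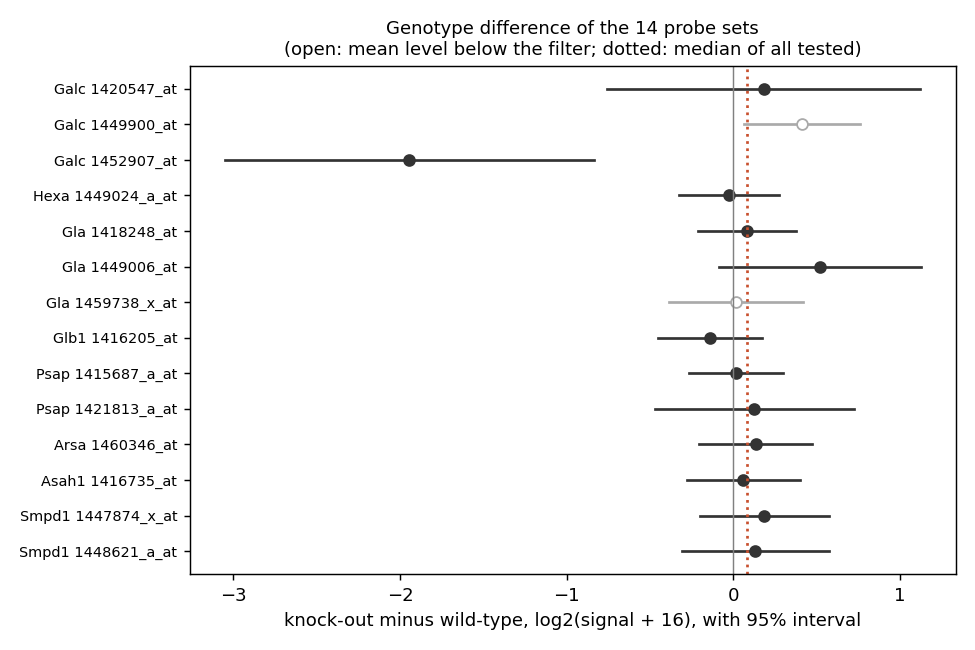
Knock-out minus wild-type difference on the log2(signal + 16) scale for each of the 14 probe sets, with points for the fitted difference and lines for its 95% interval; open points had a mean level below the filter, and the dotted line is the median of all tested probe sets at 0.08. Galc 1452907_at is lowest at -1.95. The intervals are unadjusted and describe members picked with these values known, so they are not read as a test.

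Over the 12 tested members, the knock-out mean was higher in 9 and lower in 3, a split that was 1 to 11 after median centring and 4 to 8 without wild-type 2. The median difference was 0.10, beside 0.08 over all 27022 tested probe sets, of which 72.5% had a higher mean. Median centring moved the median of all probe sets to -0.12 and that of the members to -0.09. With 0 of 12 members called at a limma adjusted p of 0.05, beside 17 called probe sets or 0.0629% of all, nothing is read from the count, because the choice used this comparison. At an unadjusted p under 0.05 there were 1070 probe sets, and ordinary least squares called 15. Groups overlapped in 12 of 12 tested members, where 0.133% of tested probe sets had groups without overlap.

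Psap, Smpd1 and Arsa each had a probe set that fell with the Actb ratio. With genotype in the model, 3 of the 12 members were called for a slope on the log2 ratio, where 11.2% of all probe sets were. After median centring 2198 probe sets and 1 member, Psap 1421813_a_at, were called. Psap 1421813_a_at fell by 1.72 ± 0.16 SE per doubling of the ratio (limma adjusted p = 2.37e-05), Smpd1 1448621_a_at fell by 1.06 ± 0.23 SE (adjusted p = 0.00868) and Arsa fell by 0.70 ± 0.20 SE (adjusted p = 0.0426). The slopes of Smpd1 and Arsa rest on wild-type 2, and that of Psap lost its call but kept most of its size. Without that array they were, in the same order, -1.35 ± 0.41 SE (adjusted p = 0.0902), -0.21 ± 0.53 SE (0.860) and -0.02 ± 0.49 SE (0.988). There 1072 probe sets and 1 member were called, Galc 1420547_at (-5.58 ± 1.20 SE, adjusted p = 0.0265). Without wild-type 2, this Galc slope and the Psap slope both have knock-out 1 as their end point, at 9.43 and 4800.5.

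Wild-type 2 had the lowest signal of all 13 arrays for 6 of the 14 member probe sets. The share over all probe sets was not computed, so the count is not read as particular to the members. Wild-type 2 stood at 27.6% of the mean of the other wild-type brains for Psap 1421813_a_at and at 64.2% for Psap 1415687_a_at. The figures were 41.0% for Smpd1 1448621_a_at, 54.0% for Arsa, 61.8% for Hexa and 64.3% for Gla 1418248_at. Asah1 was at 116% and Galc 1452907_at at 141% in the same array, so the members did not all fall there. With the Actb ratio as a covariate, the genotype difference of Galc 1452907_at was -1.80, and 5 members had a higher and 7 a lower knock-out mean, with a median of -0.06. Without both arrays of high ratio it was -2.10, again with 5 higher and 7 lower and a median of -0.03.

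**Figure D3:**
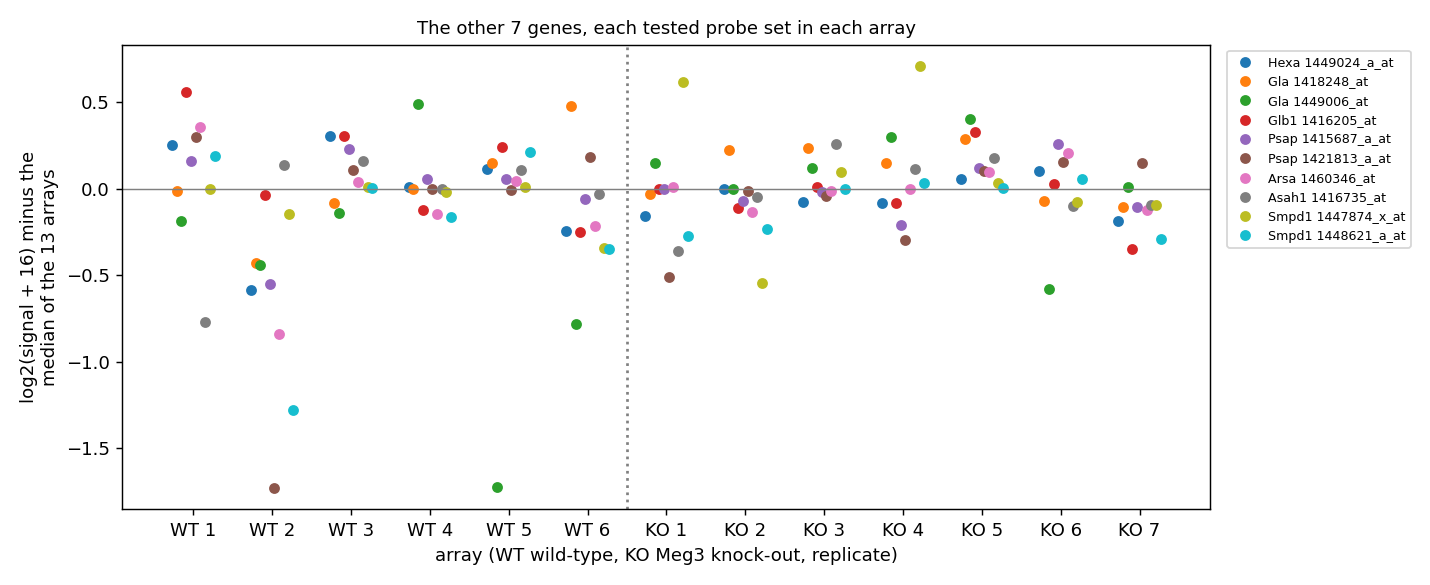
Each tested probe set of the other 7 genes in each array, as log2(signal + 16) minus its median over the 13 arrays, with wild-type arrays left and knock-out arrays right of the dotted line. In wild-type 2, whose Actb ratio was 2.92, Psap 1421813_a_at and Smpd1 1448621_a_at lie farthest below 0 and Asah1 lies above it; the other point as low is Gla 1449006_at in wild-type 5, at a signal of 9.93.

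Upstream sequence was set beside the members because lysosomal genes are known targets of TFEB, a factor that binds an extended E-box called the CLEAR element. RefSeq windows of 250 bases before the start were found for 7 of the 8 genes, with 2 for Psap, but not for Asah1. The E-box CACGTG, a palindrome and so alike on both strands, was in the windows of Arsa, Gla and Glb1 (3 of 8 windows), against 6.02% of all 32851 windows. An exact match to the full palindromic CLEAR core, which contains the E-box, was in 0 of 8 and in 0.240% of all. Near matches to this core were not counted, so 0 of 8 does not mean that a CLEAR element is absent. The GC box GGGCGG was in 4 of 8 windows (32.7% of all) and CCAAT in 3 of 8 (33.8% of all), both strands searched. The stretches around the E-boxes are shown because they are the member sequences that hold this motif, in capitals. They lie at chr9:114401003-114401062 (plus strand), chr15:89477425-89477467 (minus strand), chrX:134601200-134601255 and chrX:134601167-134601226 (both minus strand) of GRCm38.p6.
Glb1: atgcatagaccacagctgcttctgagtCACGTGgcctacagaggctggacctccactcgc
Arsa: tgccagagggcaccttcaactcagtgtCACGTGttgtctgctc
Gla, farther from the start: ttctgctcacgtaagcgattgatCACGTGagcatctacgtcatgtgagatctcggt
Gla, nearer the start: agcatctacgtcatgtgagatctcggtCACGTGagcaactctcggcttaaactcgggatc
A match is a description of these letters only, and the 3 genes with an E-box had differences of -0.14 (Glb1), 0.13 (Arsa) and 0.08 (Gla 1418248_at).

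Of 4 tested transcription factors of lysosomal genes 0 were called, with a median of -0.09. The knock-out mean was lower for the TFEB family members Tfeb, Tfe3 and Mitf and higher for Zkscan3, a zinc-finger repressor (0.07 ± 0.16 SE). Tfec, of the same family, did not pass the filter. Tfeb stood at 131 ± 17.1 (SD, n = 6) in wild-type and 105 ± 27.5 (SD, n = 7) in knock-out brains, a difference of -0.31 ± 0.16 SE. Its relative Tfe3 had a difference of -0.12 ± 0.16 SE, and Mitf one of -0.06 ± 0.19 SE.

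Other genes of sphingolipid breakdown gave 0 calls in knock-out brains. Of 14 further genes listed for lysosomal sphingolipid breakdown, 9 had a probe set of their own and 8 were tested. Among these 8, 6 had higher and 2 lower means, with a median of 0.06 beside 0.04 over all 12920 genes tested. Scarb2, the receptor that carries glucocerebrosidase to the lysosome, stood at 0.10 ± 0.11 SE, and Smpdl3a, a relative of Smpd1, at -0.12 ± 0.12 SE. Of 13 genes of sphingolipid breakdown outside the lysosome, 10 had higher and 3 lower means, with a median of 0.10. Acer2, a ceramidase of the Golgi, had signals of 178 ± 25.1 (SD, n = 6) and 238 ± 49.7 (SD, n = 7), a difference of 0.37 ± 0.15 SE (limma adjusted p = 1.00). The sphingomyelinase Smpd4 stood at 0.24 ± 0.12 SE.

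Genes that build sphingolipids also gave 0 calls among 26 tested, of which 17 had higher and 9 lower means (median 0.03). The ceramide synthase Cers4 stood at 0.20 ± 0.12 SE and Sptlc2, a subunit of serine palmitoyltransferase, at 0.33 ± 0.21 SE. Of 41 other lysosomal genes, 22 had higher and 19 lower means, the median was 0.01 and 0 were called. The smallest p there belonged to Sgsh, the sulfamidase of heparan sulfate breakdown, at 84.5 ± 12.3 (SD, n = 6) and 113 ± 17.1 (SD, n = 7), a difference of 0.36 ± 0.12 SE (limma adjusted p = 1.00). Ppt1, a palmitoyl-protein thioesterase, stood at 0.22 ± 0.11 SE.

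**Figure D4:**
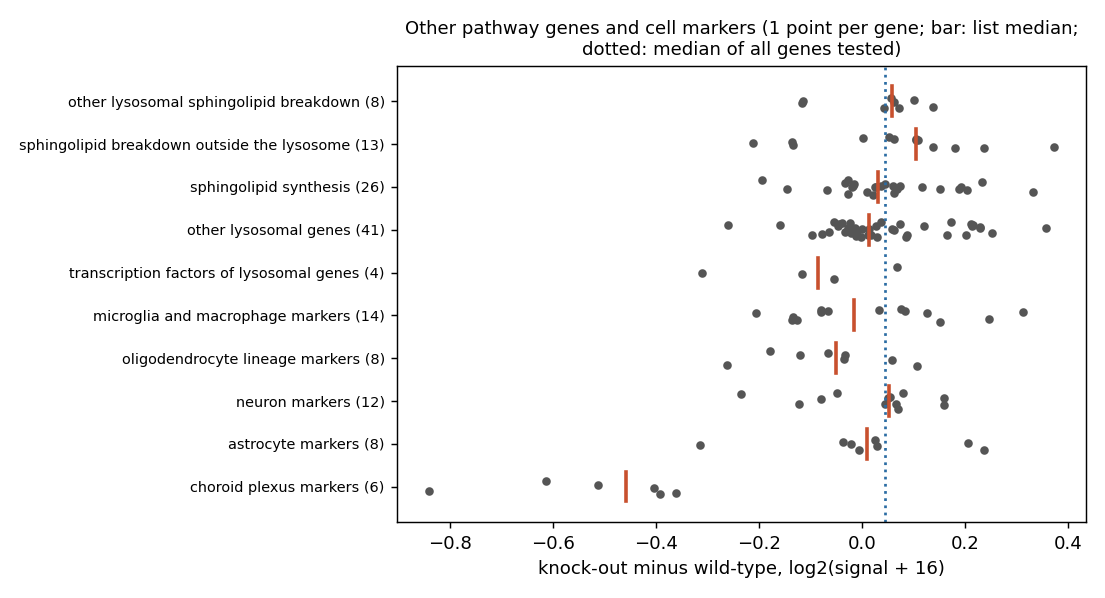
Knock-out minus wild-type difference on the log2(signal + 16) scale for each tested gene of 10 lists, 1 point per gene from its brightest probe set, with a bar at each list's median and a dotted line at the median of all genes, 0.04; the number of tested genes is in brackets. The sphingolipid and lysosomal lists lie around the dotted line, and the 6 choroid plexus markers lie to its left, with a median of -0.46.

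Cell types that are rich in these enzymes or in their substrates were read from markers. In bulk brain, fewer cells of a type and less RNA per cell cannot be told apart. Of 14 microglia and macrophage markers, 7 had higher and 7 lower means, and their summed signal was 3862 to 7000 in wild-type and 3758 to 6162 in knock-out brains. The receptor Cx3cr1 stood at 0.31 ± 0.12 SE and Fcer1g at -0.21 ± 0.17 SE. Of 8 oligodendrocyte lineage markers, 2 had higher and 6 lower means, with summed signals of 7250 to 10561 and 6918 to 10850, and Mog and Mobp lay below the filter. The lineage factor Sox10 stood at -0.26 ± 0.19 SE and the myelin gene Mag at -0.18 ± 0.17 SE.

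Neuron markers had 8 higher and 4 lower means (Syn1 at -0.24 ± 0.14 SE, Dcx at 0.16 ± 0.10 SE), with summed signals of 92456 to 119837 in wild-type and 95667 to 119915 in knock-out brains. Astrocyte markers had 4 higher and 4 lower means (Slc1a2 at 0.24 ± 0.18 SE, Gfap at -0.31 ± 0.28 SE), summing to 28324 to 36555 and 30092 to 33706. All 6 of 6 tested choroid plexus markers had lower means (Clic6 at -0.84 ± 0.44 SE, Sostdc1 at -0.61 ± 0.32 SE), summing to 22437 to 37739 in wild-type and 8145 to 31241 in knock-out brains. In these 5 marker lists 0 genes were called. The part of cell composition in the member values was not tested.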

How the data were processed

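Total RNA of whole brains was labelled by the one-cycle procedure and hybridised to Affymetrix mouse arrays, per the labels' protocols. The authors deposited linear intensity values per probe set; the summary software and scaling are not given in the sources used here. Of 45037 non-control probe sets, 34945 carried 1 gene symbol, 932 several and 9160 were unnamed here, by GEO's platform annotation. The genotypes were set against each other on log2(signal + 16) by limma 3.58.1 (lmFit, eBayes; R 4.3.3) without a litter term. Its two-sided p-values were adjusted by the Benjamini-Hochberg method over every tested probe set. Litter was tested with a moderated F test, and the Actb ratio as a slope, each with genotype in the model. The litter of an embryo was taken from the leading number of its label, which the labels do not explain; deviations from the genotype means correlated at a median of 0.0466 over 13 pairs of littermates and -0.105 over 65 other pairs. Correlations used 100000 permutations. The fits were tested on simulated data. Python 3.11.15 and matplotlib 3.10.9 drew the plots.

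The members, the 10 gene lists and all rules were chosen with earlier results of these data known. Named are every member probe set, Meg3, the called genes of each list or else the 2 with the smallest p, and the 5 genes most like Galc. Kcnk13 and Eml5, the extremes of the neighbours, and Mitf and Zkscan3 were named after their values were seen. Alternatives were the pseudocount, filter, scaling, litter or replicate blocks, the Actb ratio as a covariate, least squares, and leaving out arrays or litters.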

Additional observations from a re-analysis of the deposited data

Results flagged for a closer look

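In 5 of 28 groups of member values, 1 array stood apart from the rest of its genotype by Dixon's criterion at the 95% level. The nominal rate of about 1 in 20 is for independent groups, and these share arrays. The share of flagged groups over all probe sets was not computed, so nothing about the members is read from the count. Galc 1420547_at was 9.43 in knock-out 1, against 93.6 to 262 in the other knock-out brains. Gla 1449006_at was 41.1 in knock-out 6, against 69.5 to 96.9. Wild-type 2 stood apart for both Psap probe sets, at 6621 against 9282 to 11345 on 1415687_a_at and at 2056 against 6811 to 8420 on 1421813_a_at. Asah1 was 848 in wild-type 1, against 1423 to 1632 in the other wild-type brains. The 2 arrays with the highest Actb ratio, wild-type 2 and knock-out 1, hold 3 of the 5.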

How the results depend on the processing

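Over 31 alternatives, 0 members were called for genotype, and the 10 lists gave 0 calls in each. Probe sets called higher numbered 0 in the main analysis, 3 without a filter, 1 without litter 238 and 0 to 1 when single arrays were left out (1 without wild-type 3 or wild-type 6). Probe sets called lower numbered 17, against 11 with the filter at the 60th percentile, 3 with 1 probe set per gene, and 15 to 17 when single arrays were left out. Taking the replicate number of the titles as a block gave 9. The titles do not say that those numbers pair embryos. Deviations of same-numbered arrays correlated from -0.429 to 0.204. This cannot decide the question, since littermates had a median of only 0.0466. Litter as a block changed no genotype call of a member, and it added Hexa (limma adjusted p = 0.0337) to the members called for the Actb slope. Under that block 4037 probe sets and 4 members were called for the slope.

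The litter test called 11 probe sets, 974 after quantile normalization, 646 after median centring, 21 with the Actb ratio as a covariate and 1 to 1758 without single arrays, an alternative added after seeing the data. Members called by litter were 1, 0 without both arrays of high Actb ratio and 0 to 1 without single arrays. The Actb slope called 3026 probe sets and 3 members; without wild-type 2 it called 1072 and 1, and without knock-out 1, also added later, 2969 and 3. After median centring it called 2198 probe sets and 1 member, Psap 1421813_a_at. The correlation of Galc 1449900_at and 1452907_at turned from -0.193 to 0.151 without the 2 farthest arrays. The cause of these changes was not tested. Signals near or below 56.9 limit all 3 Galc probe sets, on 1452907_at in the 4 low knock-out brains, and 2 of the Gla probe sets.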
